A study of Mus musculus with 6 samples.

Results

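The genes described here are the protein-coding neighbours of Crebbp at the start of mouse chromosome 16. Crebbp encodes CBP, a lysine acetyltransferase and transcriptional co-activator, and lies at chr16:4081328-4213997 on the minus strand of GRCm38. Members were the protein-coding genes whose annotated start lay between positions 1 and 14200000 of chromosome 16 and whose counts summed to at least 60 over the 6 libraries. Crebbp itself, Adcy9, Grin2a, Abat and Shisa9 were left out by rule. Of 89 window genes that remained, 70 passed the count minimum and are the members, out of 13775 protein-coding genes with the same minimum and 55471 genes in the whole table. Another 15 window genes had between 1 and 59 counts and 4 had 0.

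The study sequenced total RNA from the hippocampus of C57BL/6 mice (C57BL/6J in the methods) aged 3 to 6 months, in 3 Control and 3 CBP-ifKO samples. CBP-ifKO animals (Crebbp_flox;Camk2a_creERT2) carry floxed Crebbp, from a strain that the methods write as f/f, and a Cre recombinase that tamoxifen activates. The methods state that these mice express a truncated CBP without acetyltransferase activity. Both groups received tamoxifen, in 5 intragastric administrations on alternate days. The study's methods describe pools of hippocampi from 3 females for its first CBP-ifKO experiment and single mice for the others, and the labels do not say which applies here, so p-values measure the spread between these 6 samples. The controls are described there as littermates that lacked the recombinase. The description label of the Control samples nevertheless names the Camk2a_creERT2 transgene, and the labels do not state whether Control animals carried the floxed allele. The Camk2a promoter drives the recombinase in excitatory neurons of the forebrain, so other cells of the hippocampus keep an intact Crebbp. In such bulk RNA, fewer cells of a type and less RNA per cell cannot be told apart.

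CBP and its paralog p300 are recruited to promoters and enhancers by DNA-binding factors such as CREB, the cyclic AMP response element binding protein, and acetylate histones there. The genes around Crebbp have no single function. They include zinc-finger genes, a mitochondrial chaperone, ubiquitin ligases, enzymes of protein glycosylation, the neuronal splicing factor Rbfox1 and the smooth muscle myosin Myh11. A floxed allele is inherited together with the DNA on both sides of it, and the neighbours share the chromosomal surroundings of the targeted gene. The comparison asks whether the level of these neighbours differed between genotypes, and whether any difference varied with the distance from Crebbp. Members close to each other are not independent of one another, and all of them were measured in the same 6 libraries.

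The libraries held between 10199008 and 14950257 counts on genes. Levels are given below as TMM-scaled CPM (counts relative to library size), and differences as log2 fold changes of CBP-ifKO over Control with their standard error (SE), from a quasi-likelihood fit of all genes with edgeR. Each SE was calculated back from the log2 fold change and the F statistic of that fit. The 95% intervals were built from the SE and a t distribution. Adjusted p-values are Benjamini-Hochberg values over the 17981 genes tested, and a gene was called when its adjusted p was under 0.05. Crebbp measured 209, 156 and 208 CPM in the Control samples and 109, 87.1 and 99.4 CPM in the CBP-ifKO samples. The groups did not overlap, and the log2 fold change was -0.96 (SE 0.10, 95% interval -1.17 to -0.75, edgeR adjusted p = 3.63e-05), a fitted ratio of 0.514. Esr1 and Arsi, which the study ties to the creERT2 transgene, measured 6.07 ± 0.36 and 0.77 ± 0.26 CPM in Control (SD, n = 3) against 66.7 ± 2.91 and 5.32 ± 0.90 CPM in CBP-ifKO, so the Control libraries showed the low level of both. Among fixed marker lists of cell types, 1 of 6 genes of hippocampal excitatory neurons (Wfs1) and 1 of 4 interneuron genes (Sst) were called, both lower in CBP-ifKO, and 0 genes were called on the lists of astrocytes, oligodendrocytes, microglia and endothelial cells (4 genes each) or of choroid plexus and ependyma (4 of 5 tested). The summed levels of 5 of these 7 lists overlapped between the genotypes, whereas those of interneurons (494 to 516 CPM in Control, 440 to 472 in CBP-ifKO) and astrocytes (1010 to 1055 and 931 to 1006) did not. No list had a gene at 0 in every library.

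Most neighbours of Crebbp differed little between the genotypes. Of 70 members, 69 entered the test and 2 were called, Ppl and Myh11, both lower in CBP-ifKO and none higher. That is 2.90% of the members tested, against 6.39% of all genes tested, 7.93% of protein-coding genes with the same count minimum and 6.59% of the protein-coding genes on the rest of chromosome 16 (24 of 364). Calls of lower level alone made up 4.99% of all genes tested. At an unadjusted p under 0.05 the members counted 14 of 69, or 20.3%, against 21.2% of all genes tested. Both shares of members were therefore at or below those of the other genes.

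The signs of the members were balanced. Log2 fold changes were below 0 in 35 members and above 0 in 34, and ran from -0.94 to 0.28 around a median of -0.0020, beside a median of -0.0033 over all genes tested. The median absolute log2 fold change was 0.10, compared with 0.14 over all genes, 0.13 over protein-coding genes with the same minimum and 0.11 on the rest of chromosome 16. In 22 members the 3 CBP-ifKO values lay entirely on one side of the 3 Control values, 9 above and 13 below, which is 31.9% of the members tested beside 25.6% of all genes tested, 29.1% of protein-coding genes with the same minimum and 29.9% of the rest of chromosome 16.

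The fit was precise for most of them. SEs of the log2 fold change ranged from 0.054 to 0.35, and the 95% interval lay within 1 log2 unit of 0 in 64 members and within 0.5 in 53. In 64 members the interval excluded a change as large as the -0.96 of Crebbp, and in 5 it did not. The plot of log2 fold change by distance shows these intervals on both sides of Crebbp.

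**Figure D1:**
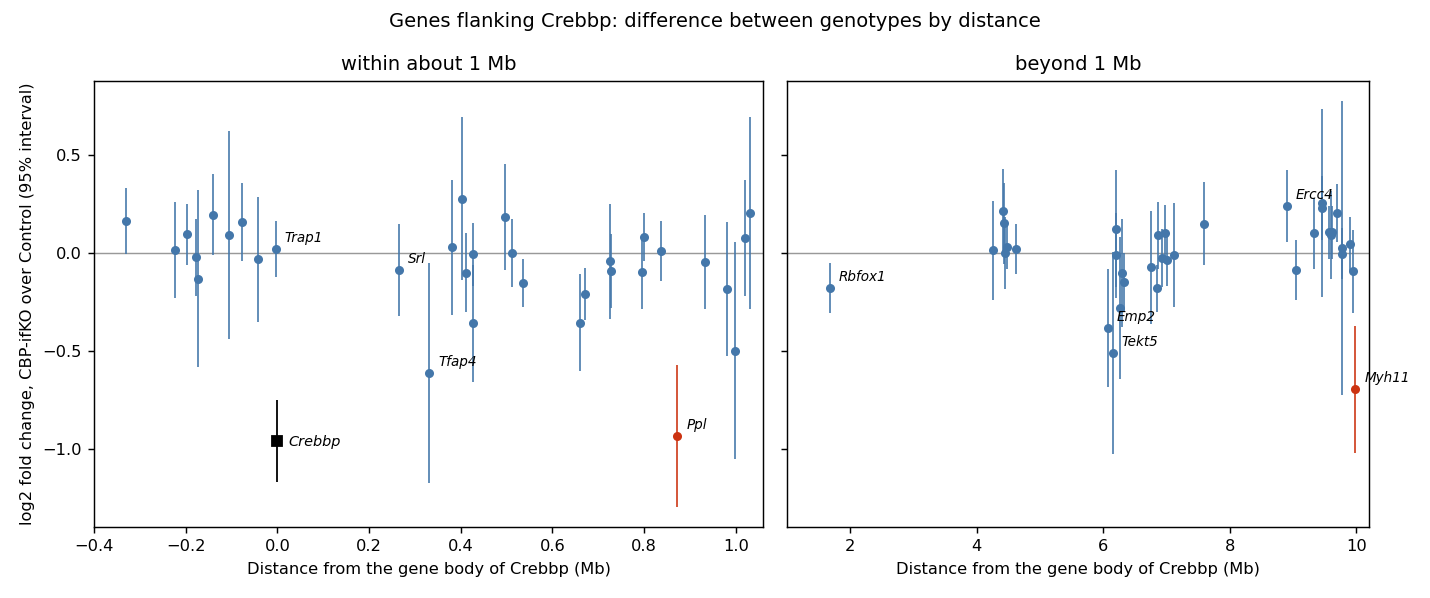
Log2 fold change of CBP-ifKO over Control with its 95% interval (y axis) against the distance from the gene body of Crebbp in Mb (x axis, negative towards lower coordinates) for the 69 members tested, with genes within about 1 Mb on the left and the others on the right. The black square is Crebbp at -0.96, red points are the 2 called members, Ppl and Myh11, and blue points are the other 67, most of which lie near 0.

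The 10 members on the side of lower coordinates lay between 3.501 and 330.5 kb from Crebbp. The nearest was Trap1, which encodes a mitochondrial chaperone of the HSP90 family and lies at chr16:4039971-4077827 on the minus strand. Its level was 63.8, 66.0 and 59.7 CPM in Control and 62.8, 63.1 and 66.5 CPM in CBP-ifKO. The groups overlapped, and the log2 fold change was 0.02 (SE 0.068, 95% interval -0.12 to 0.16, edgeR adjusted p = 0.913). The next gene, Dnase1, encodes a secreted nuclease and lies 41.3 kb away on the plus strand, where its last exon shares bases with the end of Trap1. It measured 9.67, 9.19 and 7.14 CPM in Control and 7.85, 9.46 and 7.98 CPM in CBP-ifKO, with a log2 fold change of -0.03 (95% interval -0.35 to 0.28). Slx4, the scaffold of several structure-specific DNA nucleases, lies 77.6 kb away and measured 34.3, 31.8 and 31.2 against 37.8, 31.4 and 39.7 CPM, with a log2 fold change of 0.16 (95% interval -0.04 to 0.36). None of the 3 nearest genes on this side was called, and the interval of each lay above -0.5.

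On the side of higher coordinates, 60 members lay between 266.2 kb and 9.98 Mb from Crebbp. The nearest was Srl, which encodes the calcium-binding protein sarcalumenin. It measured 15.4, 13.8 and 15.6 CPM in Control and 14.0, 13.2 and 14.98 CPM in CBP-ifKO, with a log2 fold change of -0.09 (95% interval -0.33 to 0.15). Tfap4, a basic helix-loop-helix transcription factor 330.7 kb away, was scarce, with 2.44, 3.69 and 2.08 CPM in Control and 1.74, 1.77 and 1.89 CPM in CBP-ifKO. Its groups did not overlap, its log2 fold change was -0.61 (SE 0.27, 95% interval -1.17 to -0.05), and it did not pass the threshold (edgeR adjusted p = 0.193). Without Control replicate 2, its highest library, the log2 fold change was -0.32. Glis2, a Krüppel-like zinc-finger factor 380.7 kb away, measured 7.60, 8.93 and 6.45 against 8.43, 6.57 and 8.72 CPM, with a log2 fold change of 0.03 (95% interval -0.32 to 0.37). Of the 6 nearest members on both sides together, 0 were called.

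Ppl was the called member nearest to Crebbp. It encodes periplakin, a protein that links intermediate filaments to cell junctions, and lies at chr16:5086291-5132421 on the minus strand, 872.3 kb from Crebbp. Its level was 7.42, 6.27 and 6.25 CPM in Control and 3.39, 3.68 and 3.29 CPM in CBP-ifKO. All CBP-ifKO libraries lay under the 3 of Control, with means of 6.64 ± 0.67 and 3.45 ± 0.20 CPM (SD, n = 3). The log2 fold change was -0.94 (SE 0.17, 95% interval -1.30 to -0.57, edgeR adjusted p = 0.00329). Its interval included the -0.96 of Crebbp. The members on both sides of Ppl had log2 fold changes near 0. Ubn1, a subunit of a histone H3.3 chaperone that starts 194 bp from Glyr1 and ends next to Ppl, measured 77.3, 65.9 and 73.9 CPM in Control and 75.9, 69.8 and 73.0 CPM in CBP-ifKO, with a log2 fold change of 0.01. Sec14l5, the next member beyond Ppl, measured 15.4 ± 0.37 and 15.01 ± 1.604 CPM (SD, n = 3), with a log2 fold change of -0.05.

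Myh11 lay at the far end of the window, at chr16:14194535-14291372 on the minus strand and 9.98 Mb from Crebbp. It encodes the myosin heavy chain of smooth muscle. It measured 19.0, 13.2 and 13.7 CPM in Control and 10.5, 8.02 and 10.04 CPM in CBP-ifKO. The groups did not overlap, with means of 15.3 ± 3.19 and 9.51 ± 1.31 CPM (SD, n = 3) and a log2 fold change of -0.70, at an SE of 0.15 and an edgeR adjusted p of 0.0112. The call was lost without Control replicate 1 (log2 fold change -0.51, edgeR adjusted p = 0.0530) and without CBP-ifKO replicate 2 (-0.57, edgeR adjusted p = 0.0946). A list of 6 markers of vascular mural cells (smooth muscle and pericytes), chosen after the value of Myh11 was seen, was set beside it. Of these, 4 were tested and all 4 had log2 fold changes below 0, with Vtn called (-0.40, edgeR adjusted p = 0.0122) and Acta2, the smooth muscle actin, at 12.8 ± 2.83 and 9.08 ± 1.67 CPM (SD, n = 3; log2 fold change -0.51, edgeR adjusted p = 0.0884). All 4 tested genes were also below 0 on each of the lists of interneurons, astrocytes and endothelial cells. On those of oligodendrocytes and microglia, 3 of 4 were. The summed level of the 6 mural markers ranged from 193 to 207 CPM in Control and from 155 to 194 CPM in CBP-ifKO, and Tagln and Cnn1, which define smooth muscle, were under 1 CPM in both groups. The part of mural cells in the difference of Myh11 was not tested. Nde1, a dynein regulator whose gene lies next to Myh11, measured 19.0 ± 0.14 and 17.8 ± 1.35 CPM (SD, n = 3), with a log2 fold change of -0.09.

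**Figure D2:**
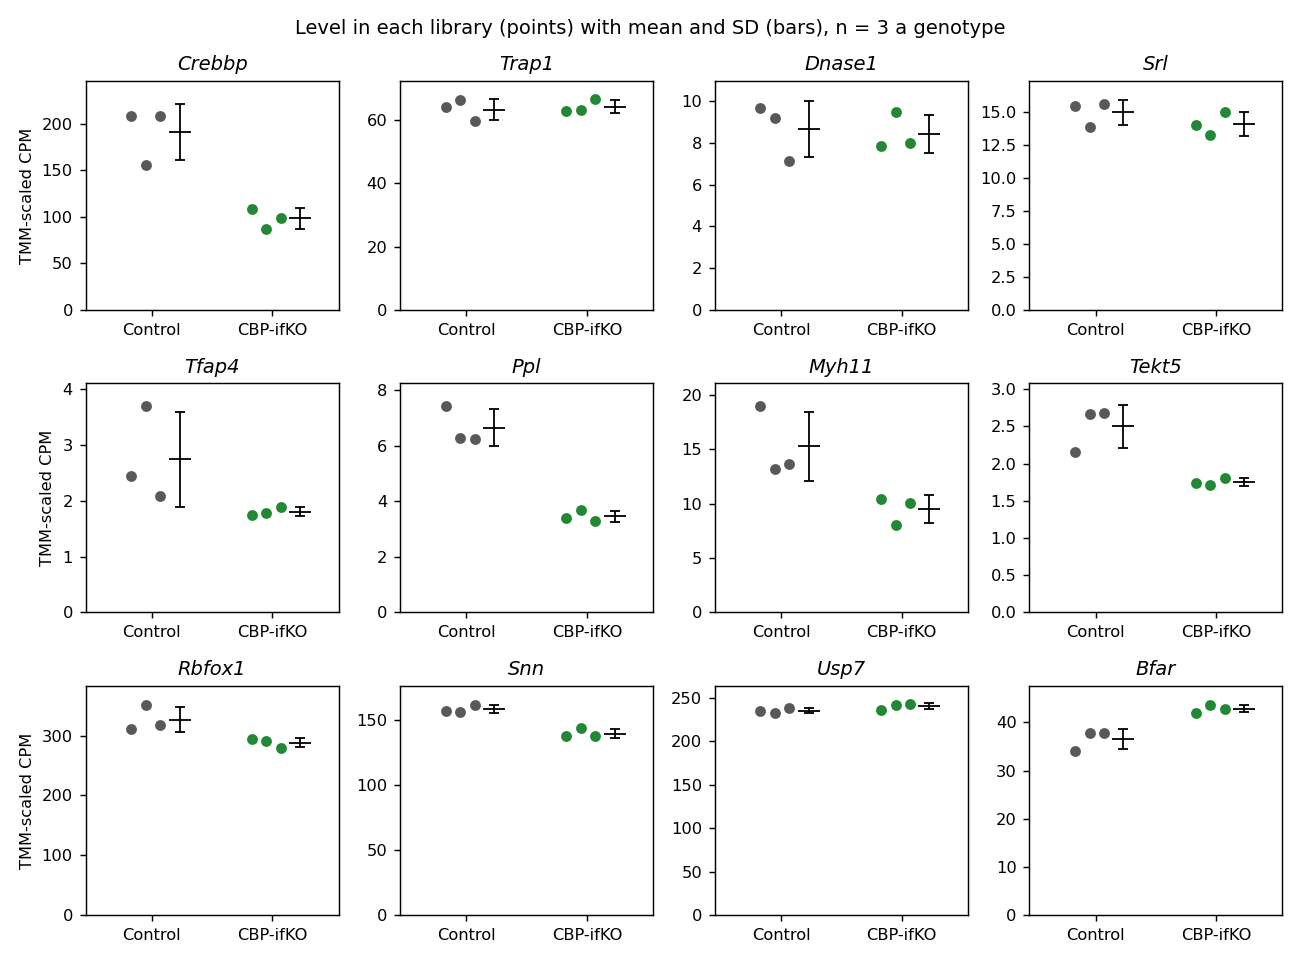
Level of Crebbp and 11 members in each library, in TMM-scaled CPM (y axis, starting at 0), with Control in grey and CBP-ifKO in green and the mean with its SD (n = 3) as bars beside the points. The groups separate widely for Crebbp, Ppl and Myh11, overlap for Trap1, Dnase1, Srl and Usp7, and separate narrowly for Tfap4, Tekt5, Rbfox1, Snn and Bfar, none of which was called.

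Below the called pair, the largest log2 fold changes of members tested belonged to scarce genes. Tfap4, described above, came first at -0.61, followed by Tekt5 and AU021092. Tekt5, a tektin of cilia and flagella 6.14 Mb from Crebbp, measured 2.16, 2.66 and 2.68 CPM in Control and 1.74, 1.71 and 1.81 CPM in CBP-ifKO (edgeR adjusted p = 0.240 at a log2 difference of -0.51 with an SE of 0.24). AU021092, an uncharacterised gene 997.8 kb away, measured 2.16, 2.23 and 2.78 against 2.13, 1.51 and 1.48 CPM (edgeR adjusted p = 0.291 at a log2 difference of -0.50 with an SE of 0.26). In Tekt5 and AU021092 the groups did not overlap, and in neither did the difference pass the threshold.

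Abundant members differed by less, with small errors. Rbfox1, a neuronal regulator of alternative splicing 1.67 Mb from Crebbp, had the highest level per length of all members, 69.9 CPM per kb of exon. It measured 311, 351 and 318 CPM in Control and 294, 292 and 279 CPM in CBP-ifKO, and its groups did not overlap (edgeR adjusted p = 0.0837 at a log2 difference of -0.18 with an SE of 0.060). Snn, which encodes the small membrane protein stannin, had 50.3 CPM per kb of exon and measured 157, 157 and 162 CPM in Control and 138, 144 and 137 CPM in CBP-ifKO, again without overlap (edgeR adjusted p = 0.0688 at a log2 difference of -0.18 with an SE of 0.057). Both missed the threshold in this fit, and both passed it once trends on GC content and gene length were removed from each library, with log2 fold changes of -0.23 (edgeR adjusted p = 0.0215) for Rbfox1 and -0.19 (edgeR adjusted p = 0.0412) for Snn. Among 18 refits, Rbfox1 passed it in 3 and Snn in 2, all with the GC trend removed. With that trend alone removed, Snn missed it (edgeR adjusted p = 0.0621). Without Control replicate 2 the log2 fold change of Rbfox1 was -0.12.

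The other members with the highest level per length were 2900011O08Rik (54.5 CPM per kb of exon), Mrtfb (31.7) and Usp7 (30.6). Levels of 2900011O08Rik were 124, 129 and 139 CPM in Control and 133, 129 and 129 CPM in CBP-ifKO, with a log2 fold change of -0.0040. Mrtfb, a co-activator of serum response factor, measured 312, 261 and 309 against 297, 260 and 273 CPM, with a log2 fold change of -0.09 (SE 0.072). Usp7, a deubiquitinase whose substrates include p53 regulators, measured 235, 232 and 239 against 236, 242 and 243 CPM. Its log2 fold change of 0.03 had the smallest SE of any member, 0.054, and a 95% interval of -0.08 to 0.14.

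A few further members, picked here after their values were seen, came close to the threshold. Mgrn1, which encodes the ubiquitin ligase mahogunin and lies 672.3 kb from Crebbp, measured 129.9, 131 and 141 CPM in Control and 121, 112 and 114 CPM in CBP-ifKO (edgeR adjusted p = 0.0536 at a log2 difference of -0.21 with an SE of 0.062). Bfar, a ubiquitin ligase of the endoplasmic reticulum 9.46 Mb away, measured 34.2, 37.8 and 37.8 against 42.1, 43.6 and 42.9 CPM (edgeR adjusted p = 0.0875 at a log2 difference of 0.23 with an SE of 0.076). Mpv17l, which encodes a peroxisomal and mitochondrial membrane protein 9.69 Mb away, measured 78.4, 76.6 and 72.1 against 82.2, 94.4 and 84.5 CPM (edgeR adjusted p = 0.100 at a log2 difference of 0.20 with an SE of 0.070). The groups did not overlap in any of the 3, and the difference went down in Mgrn1 and up in Bfar and Mpv17l.

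The members were also grouped by the role of their products, in lists drawn up with earlier results of these samples known. The only list with called members was that of the cytoskeleton, cilia and cell junctions. It held 9 members, of which Ppl and Myh11 were called, beside a share of 6.39% of all genes tested. Of the 9, 8 had log2 fold changes below 0, around a median of -0.36, which is the value of Vasn. The heading covers Vasn, a membrane protein, and Srl, a calcium-binding protein, only loosely. Beside Ppl, Myh11, Tekt5, Srl and Nde1, it held Emp2, an epithelial membrane protein at 11.1 ± 0.95 and 8.45 ± 1.29 CPM (SD, n = 3; log2 fold change -0.38, edgeR adjusted p = 0.123), and Vasn, a membrane protein that binds TGF-beta at 11.1 ± 1.12 and 8.72 ± 1.23 CPM (SD, n = 3; log2 fold change -0.36, edgeR adjusted p = 0.147). Neither Emp2 nor Vasn overlapped between the groups. Anks3 had a log2 fold change of -0.09, and Cluap1, a component of intraflagellar transport, was the member above 0, at 0.19. These genes are mostly known for epithelia, muscle or cilia, and 8 of the 9 averaged under 25 CPM.

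Transcription and chromatin genes were the largest list with 11 members. None was called, 4 were below 0 and 7 above, and the median log2 fold change was 0.01. Tfap4 had the largest difference. The zinc-finger genes Zfp263, Zfp174 and Zfp597, all on the side of lower coordinates, had log2 fold changes of 0.16, 0.01 and 0.09. Rrn3, an initiation factor of RNA polymerase I, measured 82.2 ± 2.50 and 88.3 ± 3.66 CPM (SD, n = 3), and Ciita, the transactivator of MHC class II genes, measured 5.90 ± 0.65 and 4.88 ± 0.60 CPM.

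Of the 8 genes of RNA processing and translation, 3 were below 0, 5 were above and 0 were called (median log2 fold change 0.02). After Rbfox1, the most abundant was Marf1, a regulator of RNA stability known from oocytes, at 296 ± 24.7 and 305 ± 14.5 CPM (SD, n = 3; log2 fold change 0.04). Gspt1, the translation termination factor eRF3a, measured 94.0 ± 4.41 and 91.5 ± 2.25 CPM. Eef2kmt, a methyltransferase of elongation factor 2, had the largest log2 fold change of the list, 0.20 (SE 0.23), from 2.44, 3.01 and 3.97 CPM in Control and 4.46, 3.48 and 2.96 CPM in CBP-ifKO, values that overlapped. Leaving out 1 library moved it between 0.053 (without CBP-ifKO replicate 1) and 0.40 (without Control replicate 3).

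Genes of mitochondria, iron-sulfur proteins and heme counted 6 members, with 2 below 0, 4 above and 0 called (median log2 fold change 0.07). Pam16, part of the motor that imports proteins into mitochondria, had the highest log2 fold change of all members, 0.28 (SE 0.20), with an edgeR adjusted p of 0.460, from 3.85, 4.04 and 2.98 CPM in Control and 4.85, 3.81 and 4.69 CPM in CBP-ifKO. Those groups overlapped, and the value was 0.16 without Control replicate 3. Dnaja3, a mitochondrial co-chaperone, and Hmox2, the constitutive heme oxygenase, measured 57.8 ± 3.64 and 57.6 ± 4.44 CPM and 35.3 ± 2.49 and 35.3 ± 1.04 CPM (SD, n = 3), and the log2 fold change was -0.0091 for Dnaja3. Tmem186, which takes part in the assembly of respiratory complex I, was higher in all 3 CBP-ifKO libraries, at 17.9 ± 1.59 and 20.8 ± 0.46 CPM (log2 fold change 0.21, edgeR adjusted p = 0.234).

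The 3 DNA repair and nuclease genes had a median log2 fold change of 0.16. Ercc4, the XPF nuclease of nucleotide excision repair, measured 25.8, 26.1 and 24.0 CPM in Control and 28.4, 31.0 and 29.9 CPM in CBP-ifKO, which did not overlap (edgeR adjusted p = 0.121 at a log2 difference of 0.24 with an SE of 0.087). The 3 genes of glycosylation and lysosomal enzyme tagging were Alg1 (log2 fold change 0.08), Pmm2 (0.15) and Nagpa, the enzyme that uncovers the mannose 6-phosphate tag of lysosomal enzymes. Nagpa measured 5.45, 6.70 and 5.65 against 5.43, 5.19 and 5.10 CPM (edgeR adjusted p = 0.564 at a log2 difference of -0.18 with an SE of 0.16). Its groups touched without overlapping, and the log2 fold change was -0.08 without Control replicate 2 and 0.0076 with the GC trend removed.

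The 6 genes of ubiquitin and protein turnover split into 2 below 0 and 4 above (median log2 fold change 0.06). Ubald1, which encodes a protein with a UBA-like domain and lies 660.8 kb from Crebbp, measured 22.3, 29.1 and 24.2 CPM in Control and 21.8, 17.4 and 20.4 CPM in CBP-ifKO, without overlap (edgeR adjusted p = 0.0803 at a log2 difference of -0.36 with an SE of 0.12). Without Control replicate 2 the difference was -0.23. The 10 genes listed under membrane trafficking and the endolysosome had 9 log2 fold changes below 0, around a median of -0.09. Their range was narrow, from -0.18 for Snn to 0.10 for Pdxdc1, the 1 gene above 0, whose role was not checked beyond the list. They included Cdip1, a membrane protein of late endosomes, at 219 ± 10.1 and 197 ± 3.74 CPM (SD, n = 3; log2 fold change -0.15, edgeR adjusted p = 0.127), and Clec16a, an endosomal regulator of mitophagy, at 101 ± 5.91 and 91.2 ± 6.82 CPM (-0.15, edgeR adjusted p = 0.238). None of these 16 genes was called.

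Immune genes were represented by Nlrc3, a cytosolic regulator of innate signalling, at 2.72, 2.15 and 2.18 CPM in Control and 3.10, 2.56 and 1.89 CPM in CBP-ifKO, a difference of 0.09 on the log2 scale (SE 0.25). Of 4 listed genes of the male germ line in the window (protamines and a transition protein), 0 reached the count minimum. The remaining 13 members belonged to no list. Of these, 12 were tested, with 5 below 0 and 7 above around a median of 0.02. The lists were drawn up with earlier results of these samples known, and their counts are descriptions.

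**Figure D3:**
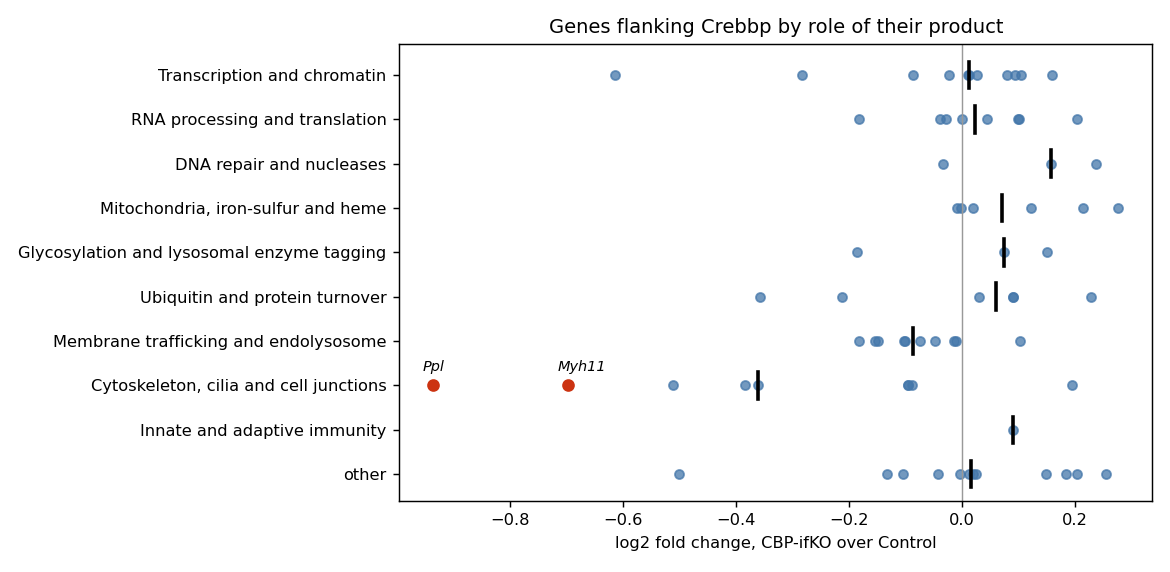
Log2 fold change of CBP-ifKO over Control (x axis) for the 69 members tested, grouped by the role of the product (y axis), with each gene as a point, called members in red and the median of each list as a black bar. The 2 called genes stand at the low end of the list of cytoskeleton, cilia and cell junctions, whose median of -0.36 is the lowest, and the medians of the other lists lie between -0.09 and 0.16.

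Along the chromosome, the called pair lay 872.3 kb and 9.98 Mb from Crebbp, with no call in between. On the side of lower coordinates, 0 of 10 members were called, 3 were below 0 and 7 above, and the median log2 fold change was 0.06. The groups did not overlap in 3 members (30%), all higher in CBP-ifKO (Zfp263, Zfp597 and Cluap1). Of all genes tested, 25.6% showed no overlap in either direction, and 11.8% were higher without overlap. On the side of higher coordinates within 1 Mb, 1 of 21 was called (Ppl), 16 were below 0 and 5 above, and the median was -0.09. The groups did not overlap in 8 members (38.1%), all lower. In either direction, this held for 25.6% of all genes tested and 29.1% of protein-coding genes with the same minimum. The share was 29.9% on the rest of chromosome 16, and 13.9% of all genes tested were lower without overlap. Further out, 0 of 3 genes were called between 1 and 3 Mb, 0 of 6 tested between 3 and 6 Mb, where all 6 were above 0 with a median of 0.02, and 1 of 29 beyond 6 Mb (Myh11), where 15 were below 0 and 14 above. The sides nearest to Crebbp thus leaned in opposite directions, each by less than 0.1 log2 unit at the median.

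The members within 1 Mb on the side of higher coordinates also had the highest median GC content. Below, within 1 Mb refers to that side only. The 21 members there had a median GC content of 54.6% in their longest transcript, compared with 51.6% on the other side. The median was 54.4% in the 3 members at 1 to 3 Mb, 47.4% at 3 to 6 Mb and 49.3% beyond 6 Mb. Across the 69 members tested, log2 fold change and GC content had a Spearman rho of -0.48, and across 17956 genes with a GC value the rho was -0.29. When trends on GC content and gene length were removed from each library, the median within 1 Mb went from -0.09 to -0.01, that of the lower side from 0.06 to 0.03, and that beyond 6 Mb stayed near 0, at 0.0028. The median of the 3 members at 1 to 3 Mb went from 0.08 to 0.18, both values being those of Alg1 (GC content 56.8%). In the same stretch, Eef2kmt (54.4%) went from 0.20 to 0.25 and Rbfox1 (45.0%) from -0.18 to -0.23. With the GC trend alone removed, the median within 1 Mb was -0.02, and with the length trend alone removed it was -0.09. These separate fits were chosen after the data were seen. With the GC and length trends removed together, the log2 fold change of Ppl was -0.86 and that of Myh11 -0.65, and both were called.

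Without those trends removed, log2 fold change rose with distance on the side of higher coordinates (Spearman rho 0.28 over 59 members), GC content fell with distance (rho -0.52), and the first relation was 0.11 after their removal. The absolute log2 fold change had a rho of 0.031 with the absolute distance over 69 members. These are descriptions across genes of the same libraries, several of which overlap or share promoters. Beyond 6 Mb, a pair of stretches chosen after the values were seen leaned in opposite directions. From Emp2 to Cpped1, 11 of 15 members were below 0 with a median of -0.04, and from Ercc4 to Myh11, 10 of 14 were above 0 with a median of 0.10.

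**Figure D4:**
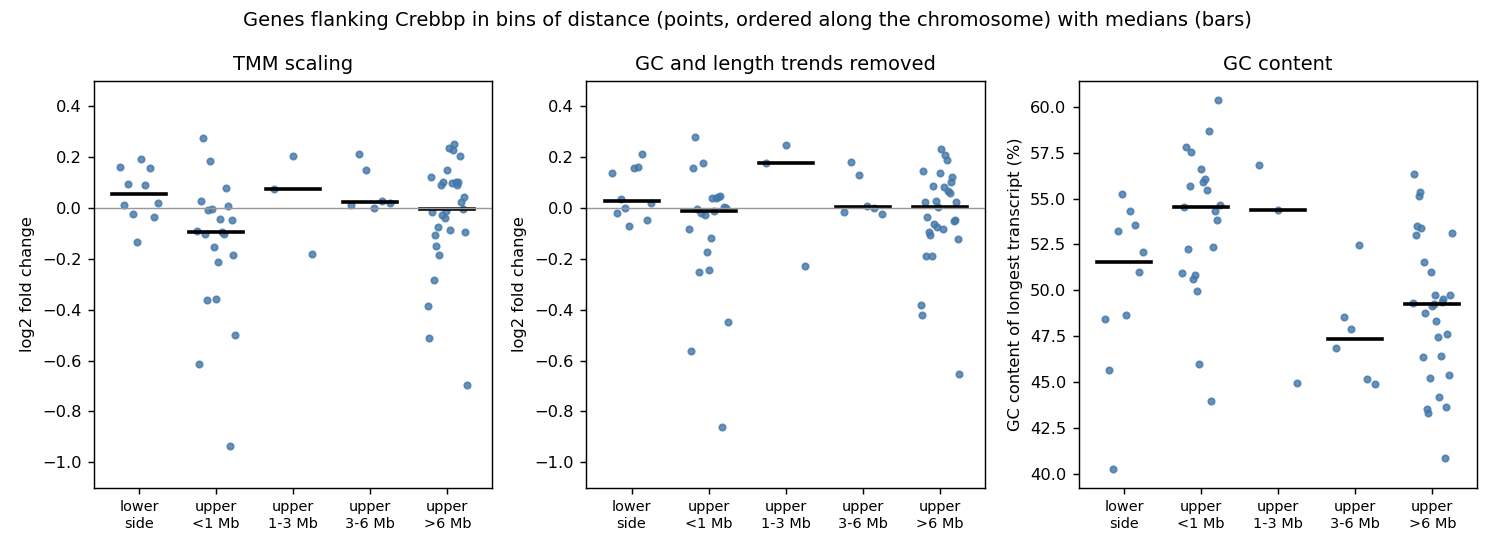
Members tested in 5 bins of distance from Crebbp (x axis), with each gene as a point ordered along the chromosome and the median as a bar, showing the log2 fold change with TMM scaling on the left, the log2 fold change after GC and length trends were removed in the middle, and percent GC of the longest transcript on the right. The bin within 1 Mb on the upper side has the highest median GC content, 54.6%, and its median log2 fold change moves from -0.09 to -0.01 between the first panels. The bin at 1 to 3 Mb has 3 members, with a median GC content of 54.4% and a range from 45.0% to 56.8%. Its median log2 fold change moves from 0.08 to 0.18, both values being those of Alg1.

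Several members share a promoter region with a neighbour. In 6 pairs the start sites of genes on opposite strands lay within 500 bp of each other or overlapped. Glyr1, which encodes a nucleosome-binding factor, and Ubn1 start 194 bp apart. Glyr1 measured 192, 209 and 199.5 CPM in Control and 214, 208 and 212 CPM in CBP-ifKO, with a log2 fold change of 0.08 (SE 0.057) and an edgeR adjusted p of 0.460 beside the 0.01 of Ubn1. Tmem186 and Pmm2, whose starts overlap, had log2 fold changes of 0.21 and 0.15, and Pdxdc1 and Mpv17l, 30 bp apart, had 0.10 and 0.20. The pair 1700037C18Rik and Cluap1 went in opposite directions, with -0.13 and 0.19, as did Marf1 and Nde1, with 0.04 and -0.09, and Ifitm7 and 2900011O08Rik, with 0.02 and -0.0040. No gene of the 6 pairs was called.

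CREB, which recruits CBP, binds the cyclic AMP response element TGACGTCA, so the promoters of the members were searched for it on both strands. RefSeq promoter windows of GRCm38.p6, from 250 bases before to 50 after each start, were found for 57 of the 70 members, with 68 windows in all. Ppl and Myh11 were not among them. The element was present in 3 of the 68 windows, or 4.41%, and in 588 of 32851 windows of the whole genome, or 1.79%. Its shorter form TGACG, or CGTCA on the other strand, which the full element also contains, was in 20 of the 68 windows (29.4%) and in 20.8% of all windows. The 3 windows belonged to Trap1, Glyr1 and Ubn1, and the last pair holds the same copy between its start sites. The stretches that hold it are printed below because Trap1 is the nearest neighbour of Crebbp and because 1 copy lies between the starts of the Glyr1 and Ubn1 pair. The element is in capitals. That of Trap1 is chr16:4077828-4078060 on the minus strand, and that of Ubn1 is chr16:5049911-5050056 on the plus strand, which is the region upstream of Glyr1 read in the other direction.
Trap1: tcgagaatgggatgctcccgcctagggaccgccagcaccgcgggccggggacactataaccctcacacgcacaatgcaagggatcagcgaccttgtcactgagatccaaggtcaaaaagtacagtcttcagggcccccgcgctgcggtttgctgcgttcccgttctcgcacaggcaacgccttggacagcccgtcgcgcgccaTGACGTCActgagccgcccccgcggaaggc
Ubn1: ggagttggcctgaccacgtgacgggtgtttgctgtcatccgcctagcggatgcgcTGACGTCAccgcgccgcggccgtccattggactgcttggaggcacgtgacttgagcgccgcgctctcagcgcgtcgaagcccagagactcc
The first base of the element, read along each gene's strand, lies 30 bp from the GENCODE start of Trap1, 110 bp from that of Glyr1 and 91 bp from that of Ubn1. RefSeq places the starts of Trap1 and Glyr1 elsewhere, at 47 and 63 bp. A match of letters is a description of the window and not a binding site. None of the 3 genes was called, and their log2 fold changes were 0.02, 0.08 and 0.01.

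Levels of the members covered a wide range. The mean over the 6 libraries ran from 0.89 to 307.5 CPM with a median of 22.3 CPM, and from 0.34 to 69.9 CPM per kb of exon with a median of 4.74. The members just inside the count minimum were Tmem114 and Ifitm7. Tmem114 had 15, 19 and 9 counts in Control and 2, 10 and 7 in CBP-ifKO, a total of 62, and was the member too scarce to be tested. Ifitm7 had 12, 21 and 7 counts against 15, 18 and 14, a total of 87, and its log2 fold change of 0.02 carried the largest SE, 0.35. Just outside the minimum, 4930562C15Rik had 10, 14 and 6 counts against 4, 8 and 11, and Gm5767 had 7, 6 and 6 against 8, 10 and 7. Exons of 38 members shared bases with another gene, and in 17 the shared part exceeded 10% of the exon bases. The strand setting of the counting is not given in the sources used here, so the split of reads between such genes is uncertain. Neither Ppl nor Myh11 shared exon bases with another gene.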

How the data were processed

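Total RNA of 3 Control and 3 CBP-ifKO hippocampal samples was sequenced as single-end reads of 50 bases. The authors deposited raw counts per gene, made by alignment to GRCm38 (mm10) with STAR 2.6.1 and exon counting with Rsubread. The submitters' processing notes also list FastQC 0.11.8, Trim Galore 0.6.4 and DESeq2 1.30.1. The deposited table has a further column of exon length per gene (unit: other), used for levels per kb. Gene IDs were matched to GENCODE annotation of GRCm38 (55230 of 55471, or 99.57%), and distances run from the gene body of Crebbp to the nearest end of a member. The members and lists were chosen with earlier results of these data known.

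Counts were fitted in edgeR 4.0.16 (R 4.3.3) with genotype as the only term, TMM scaling, a filter of at least 10 counts in enough libraries and 15 in total, and the quasi-likelihood test with Benjamini-Hochberg adjustment over 17981 genes. The fit was first tested on simulated data. The biological coefficient of variation was 6.81%. DESeq2 1.42.0, limma 3.58.1 (voom), other scalings and filters, omission of each library, and offsets for GC content and length (together and, added after seeing the data, each alone) were alternatives. Cell type lists covered excitatory neurons, interneurons, astrocytes, oligodendrocytes, microglia, endothelium, choroid plexus with ependyma, the driver transgene and, added later, mural cells.

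Genes named with values in every sample were called members, the 3 nearest to Crebbp on each side, the 5 with the largest absolute log2 fold change at 1 CPM or more, the 5 highest per length, the 2 on each side of the count minimum, and the largest change of each role list. Total counts of 10199008 to 14950257 make 1 CPM worth between 10.1 and 15.2 reads, and intervals of members widen below about 5 CPM. Same-numbered replicates did not deviate together (correlations of 0.0769, 0.0369 and 0.0022).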

Additional observations from a re-analysis of the deposited data

How the results depend on the processing

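Ppl was called under all 18 refits and Myh11 under 16, and the count of called members stayed at 2 or 3 in most. It was 4 with no filter on low counts (Ubald1, log2 fold change -0.35, edgeR adjusted p = 0.0345, and Tmem114, -1.38, edgeR adjusted p = 0.0327, were added), 4 with GC and length offsets (Rbfox1 and Snn added), and 1 at an adjusted p under 0.01, and all of these calls were lower. With library totals only, 1 member was called higher (Bfar, 0.27, edgeR adjusted p = 0.0419) and the members' median was 0.044, as the median of all genes also moved, from -0.0033 to 0.043. When 1 library was left out, between 1 and 3 members were called, all lower, and between 498 and 1326 genes in all; the lowest count, 498, came without CBP-ifKO replicate 2. Without Control replicate 1 Ubald1 was called (-0.44, edgeR adjusted p = 0.0453), and without Control replicate 2 Mgrn1 was called (-0.22, edgeR adjusted p = 0.0465).

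The labels do not say whether same-numbered replicates form pairs, so the replicate number was used as a block only in alternative fits. With the replicate block, 2 members and 1210 genes were called. The replicate block with GC and length offsets called 5 members, all lower (Ppl, Myh11, Rbfox1, Snn and Cdip1, the last at -0.17, edgeR adjusted p = 0.0259), and 1862 genes.

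By distance, library totals only gave medians of 0.10 on the lower side, 0.070 at 3 to 6 Mb and 0.042 beyond 6 Mb, where 2 members were called. In this section too, within 1 Mb refers to the side of higher coordinates only. With no filter, 2 members were called within 1 Mb and 1 at 3 to 6 Mb. GC and length offsets gave a median of -0.011 within 1 Mb, with 1 call at 1 to 3 Mb and 2 beyond 6 Mb, and together with the block a median of -0.0076 within 1 Mb, with 2, 1 and 2 calls. The GC trend alone, an alternative chosen after seeing the data, gave a median of -0.016 within 1 Mb and 1 call at 1 to 3 Mb (Rbfox1, -0.23, edgeR adjusted p = 0.0349), and the length trend alone gave 2 calls within 1 Mb (Ppl and Mgrn1, the latter at -0.20, edgeR adjusted p = 0.0489). Leaving out 1 library gave medians within 1 Mb between -0.17 and -0.034, at 3 to 6 Mb between 0.018 and 0.052 and beyond 6 Mb between -0.033 and 0.035, with 1 to 2 and 0 to 1 calls within 1 Mb and beyond 6 Mb. The cause of these shifts was not tested.

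Among the members given with values in every sample, changes of sign were limited to genes that no setting called. The log2 fold change of 2900011O08Rik was 0.0058 in DESeq2, 0.0030 with RLE factors, 0.0095 with upper-quartile factors, 0.042 with library totals only and 0.0049 with no filter. Dnase1 was at 0.011 with library totals only, Ifitm7 at -0.050 with GC and length offsets and at -0.041 with the block added, and Nagpa at 0.00019 in that last fit. With GC offsets alone, Usp7 was at -0.014, Ifitm7 at -0.035 and Nagpa at 0.0076. Leaving out 1 library moved 2900011O08Rik between -0.040 and 0.042, Dnase1 between -0.15 and 0.049, Ifitm7 between -0.23 and 0.45, Trap1 between -0.016 and 0.062, Glis2 between -0.077 and 0.16, and Nlrc3 between -0.059 and 0.26.

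With 3 samples a genotype and few reads for scarce members, intervals such as that of Tfap4, from -1.17 to -0.05, leave the size of a difference poorly fixed. Genes with shared exons remain uncertain.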
